A study of Rattus norvegicus with 14 samples.

Results

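Imprinted genes are transcribed mainly from the copy inherited from 1 parent, and many of them set how fast fetal tissues grow. Cdkn1c, an inhibitor of cyclin-dependent kinases that takes cells out of the cell cycle, and 7 other imprinted growth genes, namely Igf2, Grb10, Dlk1, Plagl1, Peg3, Mest and Ndn, were followed in fetal rat testes across doses of a phthalate. The 8 genes were chosen by name, knowing how they behaved in these libraries: Cdkn1c was selected on its fall with dose, and the others as a set of imprinted genes to set beside it. They are 8 of the 18174 genes of the count table, and all 8 were among the 12719 genes with enough counts to test. Because its fall is why Cdkn1c was chosen, its values are given as a description with no test, whereas the other 7 genes were tested in a model fitted to all 12719 genes.

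Pregnant Harlan Sprague Dawley rats received dicyclohexyl phthalate (DCHP), a plasticizer, by oral gavage in corn oil on gestational days 14 to 18. The doses were 100, 300, 600 and 900 mg/kg/day, and control dams received corn oil alone. On day 18 the testes of each litter were pooled, so a library is 1 litter: there were 3 litters for vehicle and for each dose up to 600 mg/kg/day, and 2 at 900 mg/kg/day, 14 in all. RNA was read with TempO-Seq, in which a pair of detector oligos is ligated on its target transcript and sequenced. Libraries held 5558873 to 11272861 estimated counts. Levels are CPM, the share of a library's scaled counts that a gene takes, and because a probe's efficiency is part of its count, levels are compared between litters and not between genes. The counts do not separate the maternal from the paternal copy, and in pooled tissue fewer cells of a type and less RNA per cell cannot be told apart.

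In mammals Igf2, Dlk1, Peg3, Mest, Plagl1 and Ndn are known as paternally expressed, and Cdkn1c and, in most tissues, Grb10 as maternally expressed. The fetal testis holds testosterone-producing Leydig cells, Sertoli cells, germ cells and a growing interstitium, and phthalates are known to lower steroid production by its Leydig cells. The summed levels of the Leydig, Sertoli and germ cell markers were at least 1612, 453 and 833 CPM in every library. Summed markers of the adrenal cortex, a neighbouring steroid-producing organ, were 0.784 to 4.78 CPM over the 2 of 4 listed genes that were measured.

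Before the results, 4 libraries have to be named. On the first principal component of all tested genes, which held 36.1% of the variance, vehicle litter 1 lay at -42.6, litter 1 of 100 mg/kg/day at -65.1, and both litters of 900 mg/kg/day at -38.2 and -22.8. The other 10 libraries lay between -1.8 and 35.6. Results that rest on these libraries are therefore given with all litters and again without vehicle litter 1 and litter 1 of 100 mg/kg/day. The labels give no batch, day or RNA quality that goes with this split.

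Promoters of the members are shown for the pair of genes that differed most, in opposite directions, between those 4 libraries and the other 10. Both are RefSeq sequences of build GRCr8, from 250 bases before to 50 bases after the gene's start, 5′ to 3′ on the plus strand, with each CG dinucleotide, the site of DNA methylation and hence of imprints, in capitals. Mest lies at chr4:60321564-60321863 and Ndn at chr1:125260809-125261108.
Mest: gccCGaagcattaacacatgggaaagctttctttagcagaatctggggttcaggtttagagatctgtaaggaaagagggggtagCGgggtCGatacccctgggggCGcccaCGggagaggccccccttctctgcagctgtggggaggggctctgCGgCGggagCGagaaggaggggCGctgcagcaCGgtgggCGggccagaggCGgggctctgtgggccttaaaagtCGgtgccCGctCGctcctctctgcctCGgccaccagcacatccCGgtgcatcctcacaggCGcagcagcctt
Ndn: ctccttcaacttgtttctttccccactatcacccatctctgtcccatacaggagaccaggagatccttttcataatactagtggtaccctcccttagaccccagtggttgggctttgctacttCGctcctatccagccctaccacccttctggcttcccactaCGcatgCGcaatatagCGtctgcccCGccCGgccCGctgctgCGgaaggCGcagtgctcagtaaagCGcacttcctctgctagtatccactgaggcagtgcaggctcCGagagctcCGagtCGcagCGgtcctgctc
The Mest promoter holds 18 CG dinucleotides, a number that 27.5% of 33469 rat promoters of the same length reach, and the Ndn promoter holds 14, which 33.5% reach. CG reads the same on both strands, and the median promoter holds 7. Among the other members the promoters of Dlk1 and Grb10 were the richest, with 45 and 44, a density that 1.66% and 1.89% of promoters reach. Plagl1 held 29 and Peg3 held 16, and the listed Igf2 promoters held 19 and 7. These letters describe the sequence only, since methylation was not measured here.

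Cdkn1c fell stepwise with dose. Its gene lies at chr1:198655407-198658049 on the minus strand in the rn7 coordinates of the table (ENSRNOG00000059500). The vehicle litters read 17.4, 14.4 and 15.5 CPM. At 100 mg/kg/day the litters read 9.8, 7.36 and 9.79 CPM, and at 300 mg/kg/day 7.2, 7.12 and 6.45 CPM. Every exposed litter was thus already below every vehicle litter at the lowest dose. At 600 mg/kg/day the litters read 5.5, 4.82 and 6.1 CPM, and at 900 mg/kg/day 4.46 and 4.29 CPM. The groups stood in the order of their doses and no pair of neighbouring groups overlapped. Of all tested genes, 5.98% did not overlap in CPM between vehicle and 100 mg/kg/day. That share was 9.34% at 300, 11.0% at 600 and 19.2% at 900 mg/kg/day, and it is not given for neighbouring doses.

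As group means, Cdkn1c went from 15.8 ± 1.48 CPM (SD, n = 3) in vehicle to 8.98 ± 1.4 (n = 3), 6.92 ± 0.41 (n = 3), 5.47 ± 0.642 (n = 3) and 4.38 ± 0.116 CPM (n = 2) at the rising doses. This is 56.9%, 43.9%, 34.7% and 27.7% of the vehicle mean, or 3.61-fold lower at the highest dose. The fitted log2 fold changes against vehicle were -0.81 ± 0.17 (SE), -1.19 ± 0.18, -1.53 ± 0.18 and -1.85 ± 0.21, and the slope was -0.19 ± 0.03 per 100 mg/kg/day. The gene is a low one in this assay, with 31 to 175 counts per library and a median of 58. Without vehicle litter 1 and litter 1 of 100 mg/kg/day the change at 900 mg/kg/day was -1.80 ± 0.23. Both litters of 900 mg/kg/day are themselves among the 4 libraries that stand apart, while none of the litters of 300 and 600 mg/kg/day is.

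**Figure D1:**
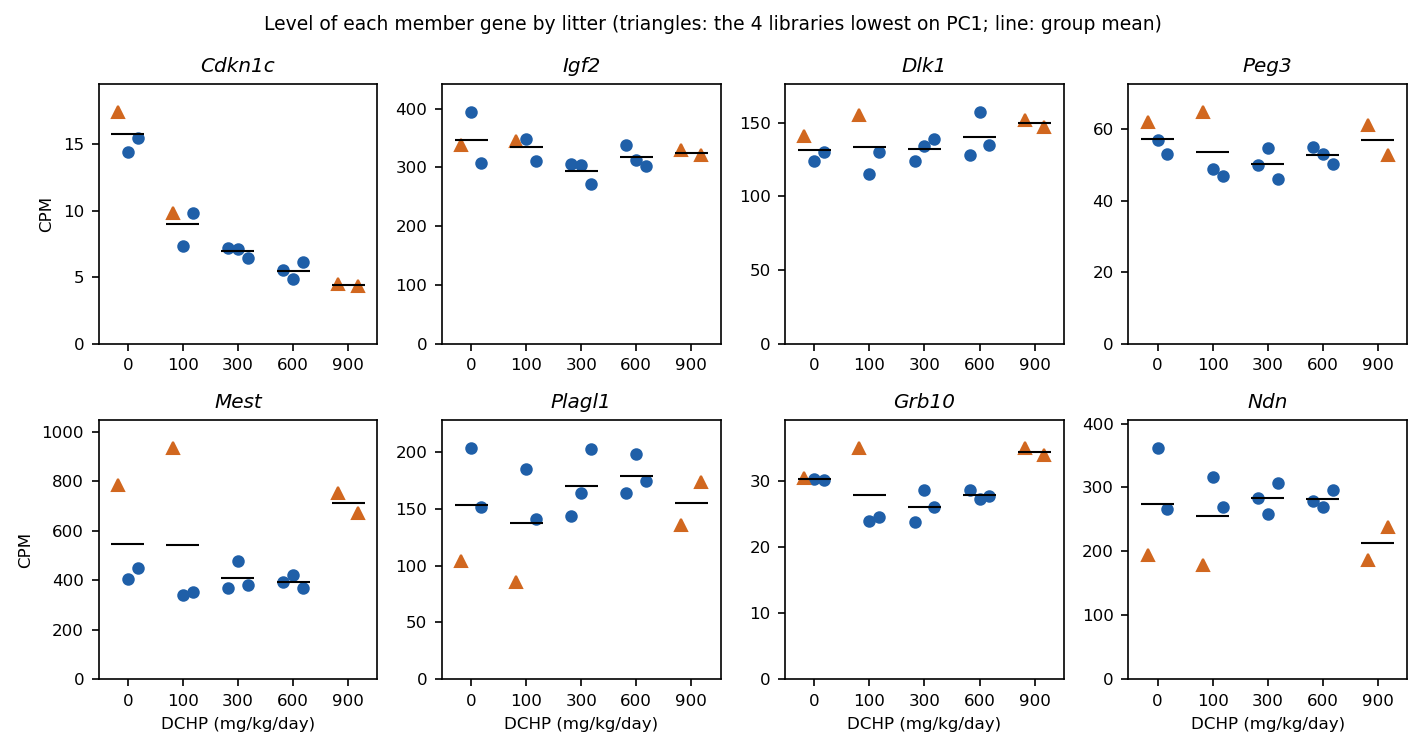
Level of each of the 8 genes in CPM (vertical axes, from 0) by DCHP dose in mg/kg/day (horizontal axes). Each point is 1 litter, lines are group means, and triangles mark the 4 libraries lowest on the first principal component. Cdkn1c steps down from 14.4 to 17.4 CPM in vehicle to 4.29 and 4.46 CPM at 900 mg/kg/day, whereas the triangles are the highest points for Mest and the lowest for Ndn, in vehicle and at 100 mg/kg/day as well as at 900 mg/kg/day.

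None of the other 7 genes passed the test at any dose. The test was edgeR's quasi-likelihood test, and a gene passed when its p, adjusted by Benjamini-Hochberg for the whole table, was under 0.05. By that rule 0.0% of the tested genes were called at 100 mg/kg/day, 0.0472% at 300, 0.22% at 600 and 0.252% at 900 mg/kg/day, and 0.425% for the slope over dose. With so few calls among all tested genes, 0 of 7 is near the background. DESeq2 also called 0 of the 7 in each comparison. The shares above are those of edgeR, and for DESeq2 no share of all tested genes is given, here or below. At an unadjusted p under 0.05 there was 1 gene at 300 mg/kg/day, Igf2, and 0 at the other doses and for the slope. The medians over all tested genes lay between -0.02 and 0.02 on the log2 scale in the 4 comparisons with vehicle.

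Igf2, the fetal insulin-like growth factor, is at chr1:197814410-197823019. It read 338, 394 and 308 CPM in vehicle, 345, 349 and 311 at 100, 306, 304 and 271 at 300, 339, 312 and 303 at 600, and 329 and 321 CPM at 900 mg/kg/day. The litters of 300 mg/kg/day all lay below the vehicle litters and every other dose overlapped with them. The log2 fold change was -0.24 ± 0.11 at 300 mg/kg/day (edgeR adjusted p = 1.0) and -0.09 ± 0.12 at 900 mg/kg/day (adjusted p = 0.858). In CPM, 9.34% of all tested genes did not overlap between vehicle and 300 mg/kg/day.

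Grb10, an adaptor that restrains signalling from the insulin and insulin-like growth factor receptors, is at chr14:86495054-86602807. The vehicle litters were close together at 30.5, 30.3 and 30.1 CPM. The exposed litters read 35.0, 23.9 and 24.6 at 100, 23.7, 28.6 and 26.0 at 300, 28.6, 27.2 and 27.7 at 600, and 34.9 and 33.9 CPM at 900 mg/kg/day. All litters of 300 and 600 mg/kg/day were below vehicle and both of 900 mg/kg/day above it. The log2 fold changes were -0.21 ± 0.15 at 300, -0.12 ± 0.15 at 600 and 0.19 ± 0.17 at 900 mg/kg/day (edgeR adjusted p = 1.0, 0.95 and 0.852). Groups that did not overlap with vehicle in CPM made up 5.98% of all tested genes at 100, 11.0% at 600 and 19.2% at 900 mg/kg/day.

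Dlk1, a membrane protein related to the Notch ligands, is at chr6:128410316-128417523. It read 141, 124 and 130 CPM in vehicle, 155, 115 and 130 at 100, 124, 134 and 139 at 300, 128, 157 and 135 at 600, and 152 and 147 CPM at 900 mg/kg/day. Both litters of the highest dose lay above the vehicle litters, though within the range of the litters at 100 and 600 mg/kg/day. The log2 fold change at 900 mg/kg/day was 0.19 ± 0.14 (edgeR adjusted p = 0.852). Of the 7 genes, those whose litters did not overlap with vehicle were 0 at 100, 2 at 300, 1 at 600 and 2 at 900 mg/kg/day.

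Peg3, a zinc finger protein at chr1:67097904-67124672, overlapped with vehicle at every dose. Its litters read 52.9 to 62.1 CPM in vehicle and 52.8 and 61.1 CPM at 900 mg/kg/day, a log2 fold change of -0.01 ± 0.16 (edgeR adjusted p = 0.99). Plagl1, a zinc finger transcription factor known as a regulator of other imprinted genes, is at chr1:7477177-7517229 and varied more within groups. It read 104, 204 and 152 CPM in vehicle, 86.0, 185 and 141 at 100, 144, 164 and 203 at 300, 164, 199 and 175 at 600, and 136 and 174 CPM at 900 mg/kg/day. Every dose overlapped with vehicle, and the log2 fold change at 900 mg/kg/day was 0.02 ± 0.30 (edgeR adjusted p = 0.989). Both lowest values belong to vehicle litter 1 and litter 1 of 100 mg/kg/day.

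**Figure D2:**
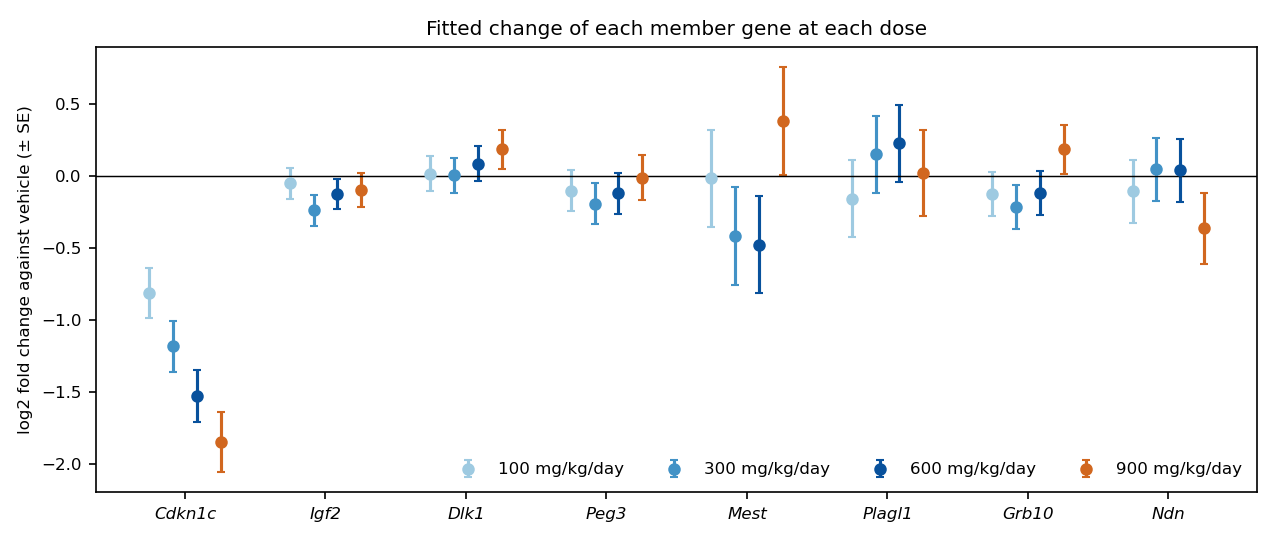
Fitted log2 fold change against vehicle (vertical axis, ± SE) of the 8 genes (horizontal axis), with a colour for each dose. Cdkn1c goes from -0.81 at 100 to -1.85 at 900 mg/kg/day, and the other 7 genes stay between -0.48 and 0.38, with the widest errors for Mest.

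Mest, which encodes a protein of the hydrolase fold made in fetal mesoderm, and Ndn, which encodes the growth suppressor necdin, moved with the libraries that stand apart. Mest is at chr4:59354447-59366146. It read 786, 406 and 448 CPM in vehicle, 935, 339 and 351 at 100, 370, 478 and 382 at 300, 391, 419 and 368 at 600, and 753 and 672 CPM at 900 mg/kg/day. The 4 libraries low on the first component thus read 672 to 935 CPM and the other 10 read 339 to 478 CPM, with a ratio of medians of 1.99. The split was found on all genes, Mest included, so this is a description of the split and has no test.

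Ndn is at chr1:115849105-115850768. It read 194, 362 and 266 CPM in vehicle, 179, 316 and 269 at 100, 283, 259 and 307 at 300, 278, 270 and 296 at 600, and 187 and 238 CPM at 900 mg/kg/day. Here the 4 libraries were the low ones, at 179 to 238 CPM against 259 to 362 CPM in the other 10. Grb10 was the remaining gene without overlap, at 30.5 to 35.0 against 23.7 to 30.3 CPM. Plagl1 leaned the way of Ndn, with medians of 120 and 170 CPM, but overlapped, and Igf2, Dlk1, Peg3 and Cdkn1c overlapped as well. Of all tested genes 13.3% had all 4 libraries above the other 10 and 10.2% had them all below, so a split of this kind was common.

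**Figure D3:**
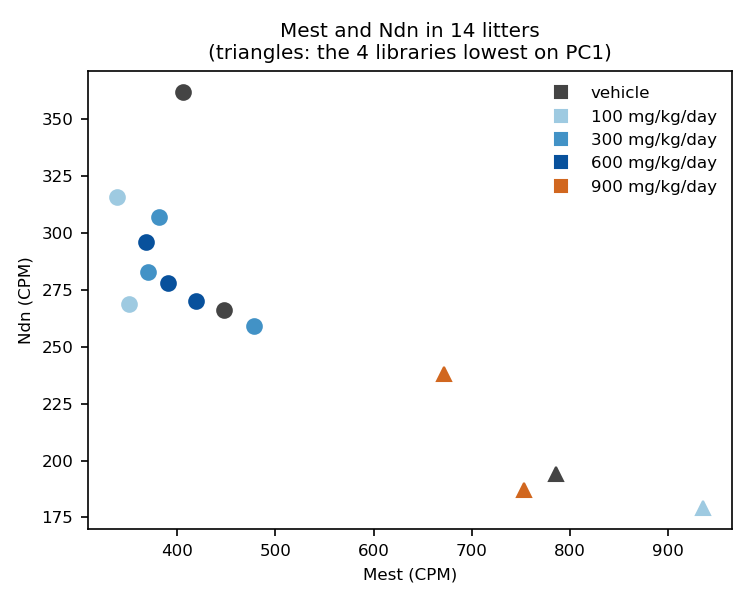
Ndn against Mest in CPM, each point 1 of 14 litters, coloured by dose, with triangles for the 4 libraries lowest on the first principal component. The triangles, from 3 dose groups, sit at Mest levels of 672 to 935 and Ndn levels of 179 to 238 CPM, apart from the other 10 litters.

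With all litters, Mest and Ndn did not pass at 900 mg/kg/day against vehicle. Mest had a log2 fold change of 0.38 ± 0.38 and Ndn of -0.36 ± 0.25 (edgeR adjusted p = 0.852 for both). Without vehicle litter 1 and litter 1 of 100 mg/kg/day, Mest rose by 0.71 ± 0.12 (adjusted p = 0.00168) and Ndn fell by 0.59 ± 0.15 (adjusted p = 0.0174). In that fit 16.7% of 12608 genes were called in this comparison and 11.8% for the slope over dose, which Mest and Ndn also passed (adjusted p = 0.0359 and 0.0409). The other 5 tested members stayed uncalled in both, the lowest being Dlk1 for the slope (adjusted p = 0.0852). The libraries left out were picked on the data and are the ones that read like the highest dose, so the smaller errors and p-values follow in part from that choice.

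Steps between neighbouring doses gave the same picture. From 100 to 300, from 300 to 600 and from 600 to 900 mg/kg/day, edgeR called 0.0% of the tested genes in each step. It called 0 of the 7 members. DESeq2 also called 0 of the 7 in each step, without a share of all genes beside it. Mest, with a log2 difference of 0.86 ± 0.37 between 600 and 900 mg/kg/day, had an unadjusted p of 0.0386 (edgeR adjusted p = 0.508). When the fit used only the 5 libraries of these 2 groups, Mest differed by 0.82 ± 0.10 (adjusted p = 0.000301) and Ndn by -0.44 ± 0.11 (adjusted p = 0.0163). In that smaller fit 18.0% of 11885 genes were called. With all groups but without the 2 named libraries the step was called for Mest and Ndn as well, as it was for 14.0% of genes.

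**Figure D4:**
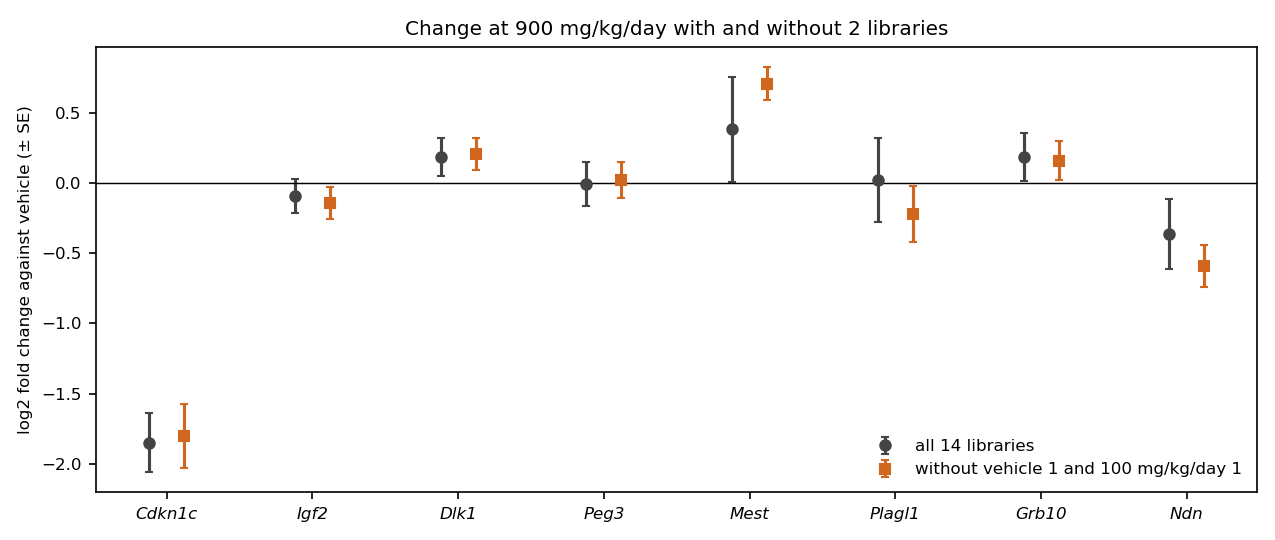
Log2 fold change at 900 mg/kg/day against vehicle (vertical axis, ± SE) of each gene with all 14 libraries (circles) and without vehicle litter 1 and litter 1 of 100 mg/kg/day (squares). Mest moves from 0.38 to 0.71 and Ndn from -0.36 to -0.59, whereas Cdkn1c stays at -1.85 and -1.80.

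Markers of cell types moved with the members in different ways. The summed level of 10 fetal Leydig cell markers went from 6543 to 11713 CPM in vehicle down to 1612 and 1965 CPM at 900 mg/kg/day, alongside Cdkn1c. Of these 10 markers 0, 3, 5 and 6 fell by edgeR at 100, 300, 600 and 900 mg/kg/day. Of all tested genes edgeR called 0.0%, 0.0472%, 0.22% and 0.252% there. At the lowest dose 5 markers had an unadjusted p under 0.05. DESeq2 called 1, 4, 6 and 7 of the markers at the 4 doses. Without the 2 named libraries 9 of the 10 fell at 900 mg/kg/day, where 16.7% of all genes were called. Within the vehicle group litter 1 had the lowest Leydig sum, 6543 CPM, and the highest Cdkn1c level, 17.4 CPM. The largest parts of the sum were Insl3 and Fdx1, with vehicle means of 3862 and 2830 CPM. Star and Scarb1 were highest in litter 1, at 123% and 108% of their vehicle means. These 2 markers are among the genes picked below for their likeness to Cdkn1c, so they do not stand for the list. The part of Leydig cells in the Cdkn1c values was not tested. The adrenal sum was 1.89 to 4.78 CPM in vehicle and 1.03 to 1.57 CPM at 900 mg/kg/day, and its part in the Cdkn1c values was not tested. The 7 markers of interstitial progenitor cells summed to 836 to 994 CPM in the 4 libraries with high Mest. In the other 10 they summed to 656 to 773 CPM. Single markers differed: mean CPM in vehicle, 600 and 900 mg/kg/day were 374, 399 and 500 for Ptch1 and 41.4, 42.9 and 47.6 for Tcf21. For Pdgfra the means were 61.7, 61.9 and 61.8 CPM, so the sum does not stand for every marker. The part of interstitial progenitor cells in the Mest and Ndn values was not tested.

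Of the 7 relations of another member with Cdkn1c across litters 0 passed. Over 14 litters Mest and Ndn, which differed most between the 4 libraries and the other 10, had a Pearson's r of 0.08 and 0.01 with Cdkn1c. Among the other 5 members the strongest relations with Cdkn1c by Pearson's r were with Plagl1 and Igf2. These were at r of -0.37 and Spearman's rho of -0.28 for Plagl1, and at r of 0.34 and rho of 0.24 for Igf2. Permutation tests gave a p of 0.192 and 0.232 for r and of 0.332 and 0.404 for rho. Adjusted over all 7 relations, the p of the permutation test was 0.607 for both r and 0.811 for both rho. Without the 2 litters farthest from the median Cdkn1c level, both of them vehicle, r was -0.17 and 0.47. Without vehicle litter 1 and litter 1 of 100 mg/kg/day it was 0.00 and 0.28, and Dlk1, at -0.32 with all litters, was then the strongest of the 5 at -0.61. Mest and Ndn were then at -0.43 and 0.53. Within dose groups, where differences between doses are removed, Plagl1 had an r of -0.78 with Cdkn1c and did not pass (exact permutation p = 0.0135, adjusted p = 0.0945). There the pooled SD of log2 Cdkn1c was only 0.153, in a gene with a median of 58 counts. Counting error was not separated from so small a spread. Among the 28 pairs of members within the 10 litters that stand together, the closest was Peg3 with Grb10, at r of 0.78 and rho of 0.83 (permutation p = 0.0109 and 0.00471, adjusted p = 0.206 and 0.132), with r of 0.80 without the 2 farthest litters.

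The genes whose pattern over 14 litters was most like that of Cdkn1c, among 10445 genes with a mean count of at least 20, are named next. Star, which brings cholesterol into the mitochondrion, was first with Pearson's r of 0.94, followed by Dhcr7, the last enzyme of cholesterol synthesis, at 0.92. Abhd2, Sqle, Pcyt2 and Scarb1 came next at 0.91 to 0.92. Sqle is squalene epoxidase and Scarb1 the lipoprotein receptor that takes up cholesterol. At the other end stood Testin at r of -0.92, Lrrc39 at -0.90 and Ldb3 at -0.88. Their litters at 900 mg/kg/day read 983% and 943%, 1406% and 1471%, and 353% and 377% of their vehicle means. These r values are a description, because litters of a dose group share their dose: within dose groups the same r was 0.09 for Star, 0.21 for Dhcr7, 0.44 for Abhd2, -0.72 for Sqle, -0.06 for Pcyt2 and -0.31 for Scarb1. The highest r within dose groups belonged to other genes, Cryab at 0.94, Mapk1ip1l at 0.93, and Kctd3 and Per3 at 0.92. Over all 14 litters their r was -0.65, -0.23, -0.02 and 0.18. They too were picked as the highest of 10445 genes, against a pooled SD of log2 Cdkn1c within dose groups of only 0.153. At 900 mg/kg/day Star was at 16.4% and 17.1% of its vehicle mean and Dhcr7 at 47.2% and 51.6%, against 28.2% and 27.2% for Cdkn1c.

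**Figure D5:**
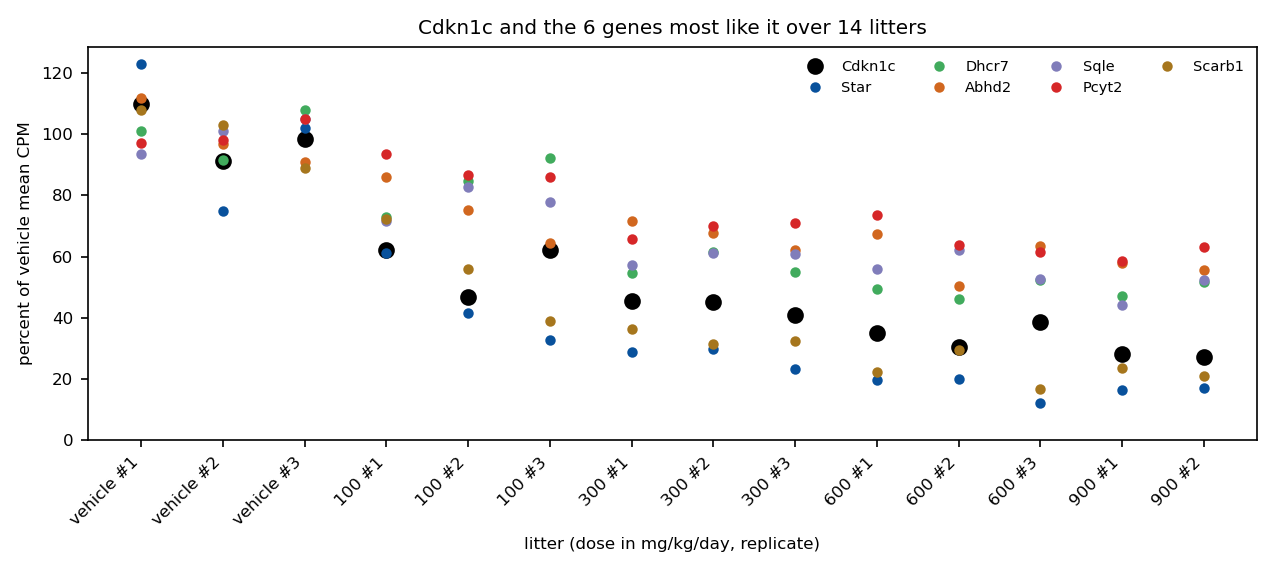
Level of Cdkn1c (large black points) and of the 6 genes most like it, in percent of the vehicle mean CPM (vertical axis), in each of 14 litters (horizontal axis, named by dose in mg/kg/day and replicate). All 7 genes are lower in both litters of 900 mg/kg/day than in every vehicle litter, and Cdkn1c, at 27.2% and 28.2% at 900 mg/kg/day, lies between Star and Dhcr7.

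For Mest the most similar genes were Ssbp2 and Vim, the latter the intermediate filament protein of mesenchymal cells, both at r of 0.99. For Ndn they were Anxa5 and Arhgdia, at 0.98 to 0.99. Among the 10 litters outside the 4 libraries, r was 0.92 for Ssbp2 and 0.89 for Vim with Mest, and 0.92 for Anxa5 and 0.90 for Arhgdia with Ndn. The genes nearest to Plagl1 were Wls and Pxylp1 at 0.94, to Grb10 Mtfr1 at 0.93 and Pfkfb3 at 0.91, to Peg3 Ube2m at 0.94 and Ube2j1 at 0.92, and to Dlk1 Smarcal1 and Enox1 at 0.91. Igf2 had the weakest nearest genes, Gstp1 at 0.80 and Atp5pd at 0.79. Among the 10 other litters r was 0.73 for Wls and Pxylp1, 0.93 for Mtfr1, 0.81 for Pfkfb3, 0.87 for Ube2m and 0.75 for Ube2j1. It was 0.89 for Smarcal1 and Enox1, 0.84 for Gstp1 and 0.77 for Atp5pd. All these genes were picked as the highest r of 10445 genes, so the values are a description.

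Imprinted genes lie in clusters, so the neighbours of each member were read as well. Of all tested genes edgeR called 0.252% at 900 mg/kg/day and 0.425% for the slope. Within 500 kb of Cdkn1c 15 genes were listed and 11 tested, and 1 of them passed. It was Dhcr7, 357 kb away, with a log2 fold change of -1.01 ± 0.16 at 900 mg/kg/day and a slope of -0.12 ± 0.02 per 100 mg/kg/day (edgeR adjusted p = 0.0077). Dhcr7 is also among the genes picked above for their likeness to Cdkn1c, and a part of location in its fall was not tested. The nearest neighbours did not pass. At 900 mg/kg/day Slc22a18, an imprinted transporter gene 13.7 kb away, had a log2 fold change of 0.28 ± 0.39 (SE). Kcnq1, the potassium channel gene of the same imprinted domain 30.7 kb away, was at -0.24 ± 0.66. Kcnq1 was too low to read closely, with medians of 0.683 CPM in the 4 libraries that stand apart and 1.91 CPM in the other 10. Nap1l4, 51.7 kb away, was at 0.28 ± 0.22.

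Around Mest 1 of 10 tested neighbours passed, the pancreatic carboxypeptidase gene Cpa1 at 90.9 kb, with a slope of -0.10 ± 0.02 (edgeR adjusted p = 0.0387). For the slope 0.425% of all tested genes were called. Copg2, on the opposite strand with its end overlapping that of Mest, read 85.2 CPM as the median of the 4 libraries with high Mest and 54.0 CPM in the other 10. Whether reads were counted by strand is not given in the sources used here. Mest counts were over 0.01 from a whole number in 11 of 14 libraries, and those of the other members in 0. The neighbour on the other side, Cep41 at 43.8 kb, was at 0.14 ± 0.24 at 900 mg/kg/day. No tested neighbour passed around Igf2 (8 tested), Dlk1 (2), Peg3 (12), Plagl1 (8), Grb10 (4) or Ndn (2). At 900 mg/kg/day the nearest ones to Igf2, Mrpl23, Tnnt3 and Lsp1, were at -0.50 ± 0.30, 0.02 ± 0.38 and 0.28 ± 0.34. Those of Plagl1, Ltv1, Phactr2 and Sf3b5, were at 0.19 ± 0.18, 0.15 ± 0.18 and -0.05 ± 0.19. Those of Grb10, Fignl1, Cobl and Zpbp, were at 0.57 ± 0.74, 0.23 ± 0.42 and 0.07 ± 0.31. Those of Dlk1, Begain and Wdr25, lay farther away, at 430.5 and 471.4 kb, and were at -0.13 ± 0.36 and 0.40 ± 0.43. Beside Peg3, Usp29 at 0.2 kb was at -0.09 ± 0.38, Zim1 at 7.5 kb at -0.08 ± 0.14 and Aurkc at -0.20 ± 0.65. Beside Ndn, Magel2 at 29.7 kb was at 0.73 ± 0.53 and Mkrn3 at 76.0 kb at 0.00 ± 0.22, with Ndn itself at -0.36. Magel2 was near the floor, with medians of 0.955 CPM in the 4 libraries and 0.991 CPM in the other 10.

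Other genes of the same pathways were read from lists. Of 45 other imprinted genes 35 were in the table and 26 tested, and edgeR called 0 of them at every dose and for the slope, as did DESeq2, with 1 at an unadjusted p under 0.05 at 900 mg/kg/day (Zdbf2) and 1 for the slope (Impact). Zdbf2 read 37.4 ± 5.72 CPM in vehicle (n = 3) against 50.3 ± 0.562 CPM at 900 mg/kg/day (n = 2), and the log2 fold changes of Impact and Ube3a there were 0.19 ± 0.11 and -0.41 ± 0.28. The median log2 fold change of the 26 genes at 900 mg/kg/day was 0.11, against 0.02 for all tested genes. Without the 2 named libraries 5 rose and 2 fell at 900 mg/kg/day, where 16.7% of all genes were called. In the 4 libraries Nnat, Igf2r, Ppp1r9a, Copg2 and Trappc9 were above all other litters, with medians of 73.3 against 39.4 CPM for Nnat and 121 against 71.1 CPM for Igf2r, the receptor that clears Igf2. Tssc4 and Ube3a were below them, so 7 of 26 separated in this way, near the 23.5% of all tested genes that did.

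Among cyclin-dependent kinase inhibitors, 1 of 6 besides Cdkn1c had enough counts to test, Cdkn1b, at 63.6 ± 10.0 CPM (SD, n = 3) in vehicle and 71.7 ± 7.78 CPM (n = 2) at 900 mg/kg/day, a log2 fold change of 0.17 ± 0.23 (edgeR adjusted p = 0.86). Of 19 tested cyclins, kinases and proliferation genes 0 passed in any comparison with vehicle or for the slope, by edgeR or DESeq2, and 0 had an unadjusted p under 0.05. Without the 2 named libraries 2 of the 19 rose and 3 fell at 900 mg/kg/day, where 16.7% of all genes were called. The log2 fold changes of Rbl2, Ccna2 and Cdk4, the proliferation genes with the lowest p for the slope, were 0.40 ± 0.19, -0.58 ± 0.28 and -0.44 ± 0.26 at 900 mg/kg/day. Of 14 tested genes of the insulin-like growth factor axis 0 passed by either tool. Without the 2 named libraries 3 of the 14 rose and 2 fell at 900 mg/kg/day, beside the same 16.7% of all genes. At an unadjusted p under 0.05 there was 1 gene at 600 mg/kg/day, Igfbp3, and 1 at 900 mg/kg/day and for the slope. The latter was Igfbp2, a secreted binding protein of the growth factors, at 42.2 ± 10.4 CPM in vehicle (n = 3) and 21.5 ± 3.84 CPM at the highest dose (n = 2), a log2 fold change of -0.97 ± 0.29 (edgeR adjusted p = 0.459). The receptor substrates Irs1 and Irs2 were both at 0.26 there, with SEs of 0.31 and 0.23.

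Of 10 tested Notch pathway genes, relatives of Dlk1, 0 passed by either tool and 1, Dll1 at 100 mg/kg/day, had an unadjusted p under 0.05. Without the 2 named libraries 1 fell at 900 mg/kg/day. In that fit 16.7% of all genes were called at 900 mg/kg/day, the share to set beside the 2 lists below as well. Notch2, Jag2 and Dll4 were at 0.30 ± 0.18, 0.35 ± 0.42 and 0.26 ± 0.21 at 900 mg/kg/day. Of 18 genes that maintain imprints and DNA methylation 0 passed by either tool, with 1 at an unadjusted p under 0.05 at 100, 300 and 900 mg/kg/day each, and 2 of 17 fell at 900 mg/kg/day without the 2 named libraries. Trim28, a corepressor that protects imprints, was at 0.28 ± 0.12 at 900 mg/kg/day, and Dnmt1, the maintenance methyltransferase, was too low to read, at 0.412 ± 0.16 CPM in vehicle (n = 3). Of 10 tested paralogues and relatives of the members 1 rose over dose, the Grb10 paralogue Grb14, where 0.425% of all tested genes were called. Grb14 went from 3.83 ± 1.38 CPM in vehicle (n = 3) to 11.2 ± 0.0277 CPM (n = 2) at 900 mg/kg/day, a slope of 0.16 ± 0.03 per 100 mg/kg/day (edgeR adjusted p = 0.0229). At 900 mg/kg/day alone its log2 fold change of 1.54 ± 0.35 did not pass in edgeR (adjusted p = 0.142) and passed in DESeq2. Maged1 and Maged2, relatives of Ndn, were at 0.14 ± 0.10 and -0.75 ± 0.31 there, neither passing, and without the 2 named libraries 1 of the 10 rose and 1 fell at 900 mg/kg/day.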

How the data were processed

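Estimated counts per Ensembl gene for 14 libraries were used as the authors deposited them. STAR 2.7.8a, Partek, DESeq2 and build rn7 are named per the submitters' processing notes, without saying which tool made which table. Of the values 83.6% were whole to within 1e-09, and all were rounded before testing. A deposited table that rescales 16 attenuated genes, none of them a member, served as an alternative, and the deposited log2 values were not used. edgeR 4.0.16 in R 4.3.3 fitted 1 quasi-likelihood model to 12719 genes kept by filterByExpr (99.9% of counts, 5455 genes left out), scaled by TMM, with 9 residual degrees of freedom; the biological coefficient of variation common to all genes was 23.2%. The slope over dose came from its own fit. All tests were two-sided, with Benjamini-Hochberg adjustment over all tested genes. The step was tested on simulated data. CPM use TMM-scaled totals, and correlations use log2 CPM with a prior count of 2, with 100000 permutations (within dose groups, all 2592 rearrangements).

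The members, the gene lists and the libraries left out in alternatives were chosen with earlier results of these data known. Genes named beside the members are the 6 most and 3 least like Cdkn1c over litters and the 4 most like it within dose groups, the 2 most like each other member, up to 3 tested neighbours within 500 kb and any that passed, and, from each list, genes that passed or up to 3 with the lowest p for the slope. Dll1, Igfbp3 and the imprinted genes that separated the 4 libraries from the other 10 were named after their values were seen. P-values measure the spread between litters. The labels number no replicates, so litters are numbered in accession order. Cdkn1c had the fewest counts of the members, at a median of 58. Alternatives were DESeq2 1.42.0, its size factors, library totals, other filters, fits of only the groups compared, and leaving out libraries.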

Additional observations from a re-analysis of the deposited data

How the results depend on the processing

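No paired analysis was possible because litters carry no shared numbers in the labels. Alternatives changed 1 choice at a time, except that vehicle litter 1 and litter 1 of 100 mg/kg/day were left out together. The log2 change of Cdkn1c kept its direction in every alternative run, and its slope lay between -0.204 and -0.174 when 1 litter was left out, the latter without vehicle litter 1. A count of called members includes Cdkn1c, which was chosen on these comparisons, so the counts only describe the fits. The count was 1, Cdkn1c alone, at 300, 600 and 900 mg/kg/day and for the slope. It was 0 at 100 mg/kg/day and between 600 and 900 mg/kg/day. At 300 mg/kg/day the count was 0 with library totals only, with no filter on low counts and with only the 2 groups in the fit, and 0 to 1 with 1 litter left out, being 0 in 12 of 14 such fits. With only the 2 groups it was also 0 at 600 and at 900 mg/kg/day, but 2 between 600 and 900 mg/kg/day. At 900 mg/kg/day it was 0 to 1 with 1 litter left out, being 0 without either litter of that dose. Without the 2 named libraries it was 3 at 900 mg/kg/day, 3 for the slope and 2 between 600 and 900 mg/kg/day. DESeq2, its size factors, the attenuation-adjusted counts and the stricter filter moved none of these counts. The cause of these moves was not tested.

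Changes of sign, at 2 decimals, concerned values that passed in neither fit, and not all of these values were small. Without the 2 named libraries, Dlk1 was at -0.05 at 100 mg/kg/day, Peg3 at 0.02 at 900, Plagl1 at -0.06 at 300, -0.22 at 900 and -0.01 for the slope, and Ndn at -0.15 at 300 and -0.16 at 600 mg/kg/day. With no filter Dlk1 was at -0.03 at 300 and Peg3 at 0.01 at 900 mg/kg/day, and with library totals only Peg3 was at 0.07. With 1 litter left out, Igf2 ranged from -0.13 to 0.05 at 100 and -0.17 to 0.01 at 900 mg/kg/day, Dlk1 from -0.11 to 0.11 at 100 and -0.03 to 0.06 at 300, and Peg3 from -0.11 to 0.09 at 900 mg/kg/day. Mest ranged from -0.66 to 0.34 at 100 mg/kg/day and -0.01 to 0.04 for the slope. Plagl1 ranged from -0.43 to 0.10 at 100, -0.06 to 0.41 at 300 and -0.19 to 0.28 at 900 mg/kg/day. Ndn ranged from -0.30 to 0.15 at 100, -0.15 to 0.30 at 300 and -0.16 to 0.29 at 600 mg/kg/day. Cdkn1c had the fewest counts of the members, 31 to 175 per library.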
